A study of Mus musculus with 12 samples.

Results

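The comparison set mouse embryonic fibroblasts (MEFs) homozygous for a SIRT1 deletion (KO) against heterozygous MEFs (Het), on 3 arrays of each genotype. The 6 arrays were chosen from the 12 of the series by source label, leaving out every array whose title ends in the number 3. That left arrays 2, 4 and 5 of each genotype, while wild-type (WT) arrays 1, 2 and 5 entered only the estimate of the spread. All cells were female, untreated and taken while growing exponentially. Their medium held glucose at 25 mM, glutamine at 4 mM and serum at 10%, and each array received label made from 500 ng of RNA. The labels name 1 cell line per genotype, give no detail of the Sirt1 segment removed, and leave unstated whether arrays of a genotype came from separate embryos or cultures. The p-values below therefore measure the spread between these arrays, which may be technical.

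SIRT1 is a deacetylase that uses NAD as a cosubstrate and acts on histones and on transcription regulators such as p53, FOXO factors and PGC-1alpha. MEF cultures are prepared from the body of a mid-gestation embryo and hold fibroblasts of several body regions. Fibroblasts in culture keep much of the Hox, T-box and other homeobox expression of the region they came from. Wnt, BMP, FGF and retinoic acid signals set up those regions in the embryo.

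Levels are log2 signal minus the array's own 75th percentile, so a level of 0 lies at that percentile and a difference of 1 is a doubling. Of 27670 named features on the array, 17477 were tested because their probe was well above background on all 3 Het or all 3 KO arrays. They are called genes below, and features with no RefSeq match were kept under the array's own name. Arrays of a genotype correlated at 0.986 to 0.993 in Het and 0.986 to 0.998 in KO, the highest value being KO 4 with KO 5. Het and KO arrays correlated at 0.956 to 0.973. The left-out arrays numbered 3 correlated with the other arrays of their own genotype at 0.963 to 0.965 in Het and 0.963 to 0.966 in KO, which lies inside the range seen between genotypes. The Het and KO arrays numbered 3 correlated with each other at 0.977. File-name barcodes put the arrays on 4 slides, and on slide 4 76.9% to 77.8% of probes were well above background, against 59.7% to 64.8% elsewhere. KO had 2 of its 3 arrays on slide 4 and Het 1 of 3, so values within slides stand beside the results.

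The targeted gene was read by 2 probes, which gave different answers. The probe at chr10:62838289-62838348 (array annotation, mouse build mm7) had levels of 0.37, 0.38 and 0.39 on the Het arrays and -0.19, -0.67 and -0.75 on the KO arrays. All 3 KO arrays lay below all 3 Het arrays, and the WT arrays were at 0.38, 0.52 and 0.47. KO signal at this probe was 52.9% of Het, a log2 difference of -0.92 (SE 0.17, n = 3 and 3, limma adjusted p = 0.0106 over all probes, each fitted separately). The exact two-sided permutation test gave p = 0.1, the smallest that 3 arrays against 3 allow. The adjusted p was 0.0531 with slide as a block, 0.0561 without KO 4 and 0.0573 without KO 5.

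The second Sirt1 probe, at chr10:62855795-62855854, had levels of 0.5, 0.75 and 1.32 in Het and 1.25, 0.49 and 0.43 in KO. These groups overlapped, and the difference of -0.13 (SE 0.29) did not pass the test (adjusted p = 0.836). Since the deleted part is not named in the labels, neither probe is known to lie inside it. Xist, the RNA that coats the inactive X chromosome, was present on all 6 arrays, with levels from 2.13 to 2.91 at its brightest probe, and the probes for the Y-linked genes Sry, Usp9y and Uty were well above background on none. A single probe for the Y-linked gene Zfy1 was well above background on all 6 arrays, with means of -3.94 in Het and -3.96 in KO, while the other Zfy1 probe was at -7.64 and -7.78. That dimmer probe was well above background on 1 Het and 2 KO arrays. So was Eif2s3y, with means of -7.38 and -6.96. A Ddx3y probe was well above background on 1 Het and 1 KO array, and Kdm5d on 1 KO array.

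Cells of both genotypes carried the fibroblast markers. All 15 markers were tested, and the collagen chains Col1a1 and Col1a2 had Het means of 6.87 and 7.71 and KO means of 6.71 and 7.74. Fap, a membrane protease, was called higher in KO (2.31, SE 0.57, adjusted p = 0.0405), and 3 were called lower: the proteoglycan Dcn by -2.95 (SE 0.58), the surface glycoprotein Thy1 by -2.02 (SE 0.21) and the calcium-binding protein S100a4 by -1.46 (SE 0.17). The call on Fap was lost with slide as a block (adjusted p = 0.0984) and without any 1 of the Het arrays, KO 4, KO 5, WT 2 or WT 5 (up to 0.147). Calls made up 26.7% of the 15 markers, beside 9.17% of all tested genes. The summed scaled signal of the 15 markers was 746 to 959 on Het arrays and 584 to 612 on KO arrays. In such bulk samples a change in the kinds of cell present and a change in RNA per cell cannot be told apart.

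Markers of other cell types also moved. The summed scaled signal of 13 epithelial and mesothelial markers was 21 to 23 in Het and 27.7 to 35.7 in KO, and that of 13 neural and glial markers was 10.3 to 11.1 and 14.4 to 16.1. Among the epithelial markers Cdh1 and Krt19 were called higher, by 2.84 (SE 0.59) and 1.94 (SE 0.5), Krt8 and Krt5 lower, by -2.5 (SE 0.4) and -0.83 (SE 0.15), and the mesothelial markers Wt1 and Lrrn4 were above background on none of the 6 arrays. Krt19 had an adjusted p of 0.118 with slide as a block. It was the brightest of the called epithelial markers, with means of -0.78 in Het and 1.15 in KO. Most of the epithelial and mesothelial sum, and of its rise, therefore came from markers that were not called. Among the neural markers Stmn2, Map2 and Tubb3 were called higher, by 3.95 (SE 0.28), 2.38 (SE 0.16) and 1.23 (SE 0.25), and Elavl4 lower, by -3.48 (SE 0.65). The calls were lost for Cdh1 without Het 4, Het 5 or any 1 KO array (adjusted p up to 0.0777), Krt19 without WT 2, Het 2, Het 4 or any 1 KO array (up to 0.134), Krt5 without KO 5 (0.0607) and Tubb3 without Het 2, Het 4, KO 4 or KO 5 (up to 0.0723). For 10 endothelial markers the summed scaled signal was 2.8 to 3.89 in Het and 1.48 to 1.82 in KO, with the defining markers Pecam1 and Tie1 above background on none of the 6 arrays. Most of this sum came from Egfl7, the only endothelial marker called. Its levels were 1.89, 1.4 and 1.49 in Het and 0.39, 0.68 and 0.59 in KO, lower by -1.04 (SE 0.17). For 13 macrophage and blood cell markers the sum was 1.4 to 1.72 and 1.09 to 1.17, with the pan-leukocyte marker Ptprc above background on none. The groups did not overlap in the epithelial, neural, endothelial or macrophage sums, nor in the fibroblast sums above or the pluripotency sums below. Of all tested genes, 35.3% did not overlap either. The 9 pericyte and smooth muscle markers (5.68 to 7.84 in Het, 6.41 to 10.1 in KO), the 12 muscle markers (6.99 to 12.6 and 10.5 to 12.4) and the 11 chondrocyte and bone markers (2.51 to 3.62 and 1.87 to 2.88) overlapped between genotypes. The 10 pluripotency and germ cell markers summed to 0.281 to 0.287 in Het and 0.29 to 0.368 in KO, with Dppa3 and Lin28a above background on none. Calls made up 50% of 8 tested epithelial and mesothelial markers and 36.4% of 11 neural and glial ones. They made up 20% of 5 endothelial and 0% of 9 macrophage and blood cell markers, beside 9.17% of all tested genes. The part of these marker shifts in the results below was not tested.

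KO and Het differed at 1602 genes at a limma adjusted p under 0.05, which is 9.17% of those tested. Of these, 823 (4.71%) were higher in KO and 779 (4.46%) were lower, so 51.4% of calls were higher, and the median difference over all tested genes was -0.02. Without scaling of the arrays the calls were 1143 higher and 274 lower, 80.7% higher, around a median of 0.3. At least 2-fold changes made up 616 of the higher and 475 of the lower calls, and at least 10-fold changes made up 94 and 66. The 3 KO and 3 Het arrays did not overlap at 6167 genes (35.3%). Slide as a block gave 718 higher and 682 lower. The counts fell to 463 and 422 without Het 4, 460 and 454 without KO 4 and 486 and 427 without KO 5, and rose to 1213 and 1268 without WT 1. When arrays 4 and 5 of each genotype were averaged into 1 sample, 270 and 180 remained, all of them among the original calls.

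The left-out pair of arrays numbered 3 gave a separate look at the same contrast with no replicate. KO 3 was above Het 3 at 468 of the 823 higher calls (56.9%), and below it at 463 of the 779 lower calls (59.4%), while over all tested genes KO 3 was above Het 3 at 48.1%. The median difference in that pair was 0.15 for the higher calls, against 1.63 on arrays 2, 4 and 5, and -0.12 for the lower calls, against -1.19. With all 12 arrays fitted, 91 genes were called higher and 54 lower. The calls below therefore describe arrays 2, 4 and 5, and values in the pair numbered 3 are given beside the 24 genes with the largest changes and as counts for the gene lists.

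**Figure D1:**
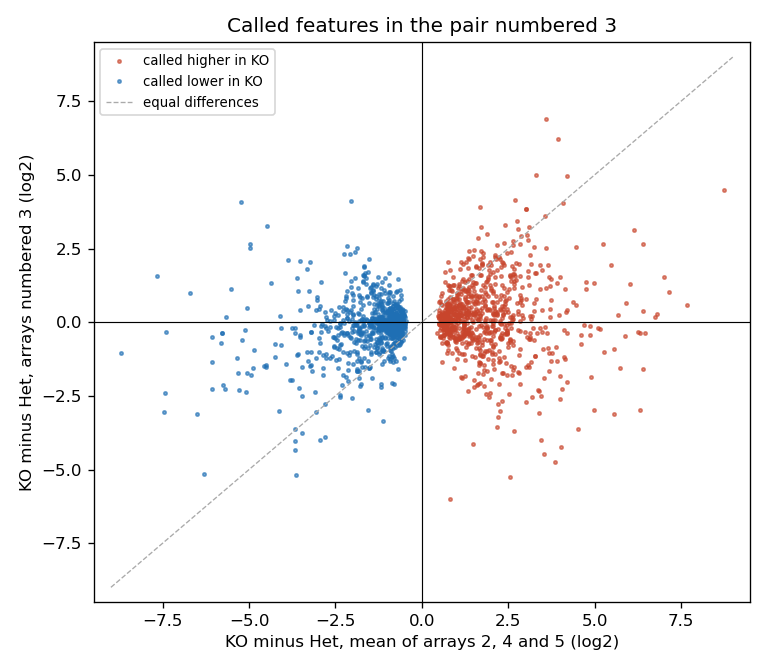
Each point is 1 of the genes called between KO and Het. The x axis is the KO minus Het difference on arrays 2, 4 and 5 and the y axis the same difference in the left-out pair numbered 3, both in log2 units. Red points are the 823 genes called higher in KO and blue points the 779 called lower. The difference was smaller in size in the pair numbered 3 for 88.3% of the called genes, and the medians there were 0.15 and -0.12.

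The WT arrays lay between the 2 genotypes at 59.9% of the higher calls and 57% of the lower calls, against 30.1% of all tested genes. WT lay below both at 23.5% of higher calls and above both at 27% of lower calls. As WT arrays set part of the spread and the calls used the Het and KO means, these shares are descriptions.

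The 12 largest increases ran from 6.25 to 8.75 and were led by Cxcl14, Pitx1 and Xlr4b. These promoters are shown because their genes are among the largest changes in each direction and carry regional or signalling roles: Cxcl14 and Foxd1 rose, and Zic1 and Meox2 fell. Each run is the 250 bases before the RefSeq start on build GRCm38.p6, 5′ to 3′ on the gene's strand, with CpG dinucleotides in capitals. They are at chr13:56296552-56296801 (minus strand), chr13:98353995-98354244 (plus), chr9:91365769-91366018 (minus) and chr12:37108290-37108539 (plus).
Cxcl14: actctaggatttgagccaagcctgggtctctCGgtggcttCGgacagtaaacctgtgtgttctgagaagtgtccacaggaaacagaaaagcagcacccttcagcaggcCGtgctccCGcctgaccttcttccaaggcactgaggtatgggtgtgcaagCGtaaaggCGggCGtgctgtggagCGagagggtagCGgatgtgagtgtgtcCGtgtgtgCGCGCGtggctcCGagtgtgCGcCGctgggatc
Foxd1: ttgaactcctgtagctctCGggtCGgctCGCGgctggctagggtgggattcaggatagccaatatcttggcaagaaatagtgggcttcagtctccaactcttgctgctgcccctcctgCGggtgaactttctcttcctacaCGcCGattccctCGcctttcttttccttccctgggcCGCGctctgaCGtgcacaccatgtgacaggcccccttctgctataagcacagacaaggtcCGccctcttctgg
Zic1: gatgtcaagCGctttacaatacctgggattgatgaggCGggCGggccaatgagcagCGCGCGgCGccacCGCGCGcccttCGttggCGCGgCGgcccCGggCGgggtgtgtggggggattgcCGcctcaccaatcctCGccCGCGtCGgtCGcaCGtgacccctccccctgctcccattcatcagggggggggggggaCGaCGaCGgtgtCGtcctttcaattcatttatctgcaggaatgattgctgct
Meox2: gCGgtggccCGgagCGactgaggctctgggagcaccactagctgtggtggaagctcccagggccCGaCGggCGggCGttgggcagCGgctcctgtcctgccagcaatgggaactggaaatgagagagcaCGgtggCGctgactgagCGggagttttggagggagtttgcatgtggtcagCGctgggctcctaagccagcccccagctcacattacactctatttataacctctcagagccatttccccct
These windows hold 16, 12, 27 and 12 CpGs, in the order shown. The motif TATAAA, searched on both strands, occurs in the Meox2 window alone of the 4, on the reverse strand. RefSeq promoters matched 11193 of the 17477 tested genes, and the median window held 15 CpGs, against 14 for the 551 matched higher calls and 12 for the 515 matched lower calls. TATAAA occurred in 7.56% of all matched windows, 8.35% of those of higher calls and 10.9% of those of lower calls.

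Cxcl14, a chemokine made by epithelium and fibroblasts, showed the largest increase. Its levels at chr13:55377968-55378027 (mm7, as for all array positions) were -6.73, -5.9 and -5.19 on the Het arrays and 2.84, 2.95 and 2.66 on the KO arrays. The KO arrays were uniformly high and the groups were far apart, with WT between them at -4.43, -1.76 and -1.61. The difference was 8.75 (SE 0.71, n = 3 and 3, 432-fold, adjusted p = 0.000178), although only 1 Het array read it well above background. Within slide 3 it was 9.57, within slide 4 it was 7.99, and in the pair numbered 3 it was 4.5.

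Pitx1, a homeobox factor that specifies hindlimb identity, had levels of -4.64, -4.05 and -3.22 in Het and 3.48, 3.89 and 3.77 in KO (chr13:54912967-54913026). Every Het array was low and every KO array high, for a difference of 7.68 (SE 0.33, 206-fold, adjusted p = 1.23e-05). In the left-out pair both arrays were high, at 3.43 in Het 3 and 4.01 in KO 3. The WT arrays lay at 1.49, 1.53 and 1.07.

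Foxd1, a forkhead factor of limb mesenchyme and kidney stroma, had levels of -4.01, -4.83 and -4.86 in Het and 1.98, 1.78 and 1.75 in KO (chr13:95426276-95426335). The groups were separate by 6.4 (SE 0.6, 84.7-fold, adjusted p = 0.000354). In the left-out pair both arrays were low, and KO 3 exceeded Het 3 by 0.38. Barx1, a homeobox factor of stomach and jaw mesenchyme, was well above background on no Het array and had KO levels of -0.95, -1.56 and -1.45, at least 35.1-fold higher in KO (adjusted p = 0.0183). Mab21l2, a factor required for eye and body wall development, had KO levels of -1.18, -1 and -1.12, against Het arrays that were again not well above background, at least 40.9-fold higher (adjusted p = 2.13e-05). These bounds set the KO mean against the lowest signal that the Het arrays read as well above background, or the probe's own where higher. In the pair numbered 3, Barx1 and Mab21l2 were lower in KO, by -1.59 and -2.97.

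Xlr4b and Xlr3c, X-linked genes of a lymphocyte-regulated family, had higher signal on all KO arrays. Xlr4b levels were -4.04, -4.69 and -4.85 in Het and 2.66, 2.6 and 2.62 in KO, a difference of 7.16 (SE 0.25, adjusted p = 7.4e-06), and its other probes differed by 3.06 and 3.58. Xlr3c, whose probe carries the name Xlr3b on the array, differed by 6.81 (SE 0.3, adjusted p = 1.23e-05). The Xlr3 and Xlr4 genes are near-identical copies, so which copy a probe reads is uncertain. In the pair numbered 3 both arrays were low for both genes.

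Nnat, an imprinted gene for a small membrane proteolipid, had levels of -6.21, -5.67 and -5.3 in Het and 0.63, 0.75 and 0.68 in KO. The genotypes were far apart (6.41, SE 0.41, 85.1-fold, adjusted p = 7.63e-05), and KO 3 exceeded Het 3 by 2.67. Megf10, an engulfment receptor of muscle precursors and glia, differed by 7.01 (SE 0.35) and by 1.52 in that pair. Kcne4, a potassium channel subunit, and Scg2, a secretogranin of dense-core vesicles, differed by 6.33 (SE 0.2) and 6.25 (SE 0.32). Their Het and WT arrays lay between -8.43 and -7.04, and their differences in the pair numbered 3 were -0.36 and -0.32. Vat1l, whose probe has an older name on the array, differed by 6.47 (SE 0.84), with Het 2 at -4.48 standing above Het 4 and Het 5 at -7.91 and -7.84. Its other probes differed by 2.17 and 4.68, and the pair numbered 3 by -0.35. Nnat, Megf10, Kcne4, Scg2 and Vat1l were each well above background on only 1 Het array. The sizes of their differences therefore depend on signal near background. Over the alternative settings their smallest differences were 4.91, 4.11, 3.6, 3.5 and 4.24, in that order.

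**Figure D2:**
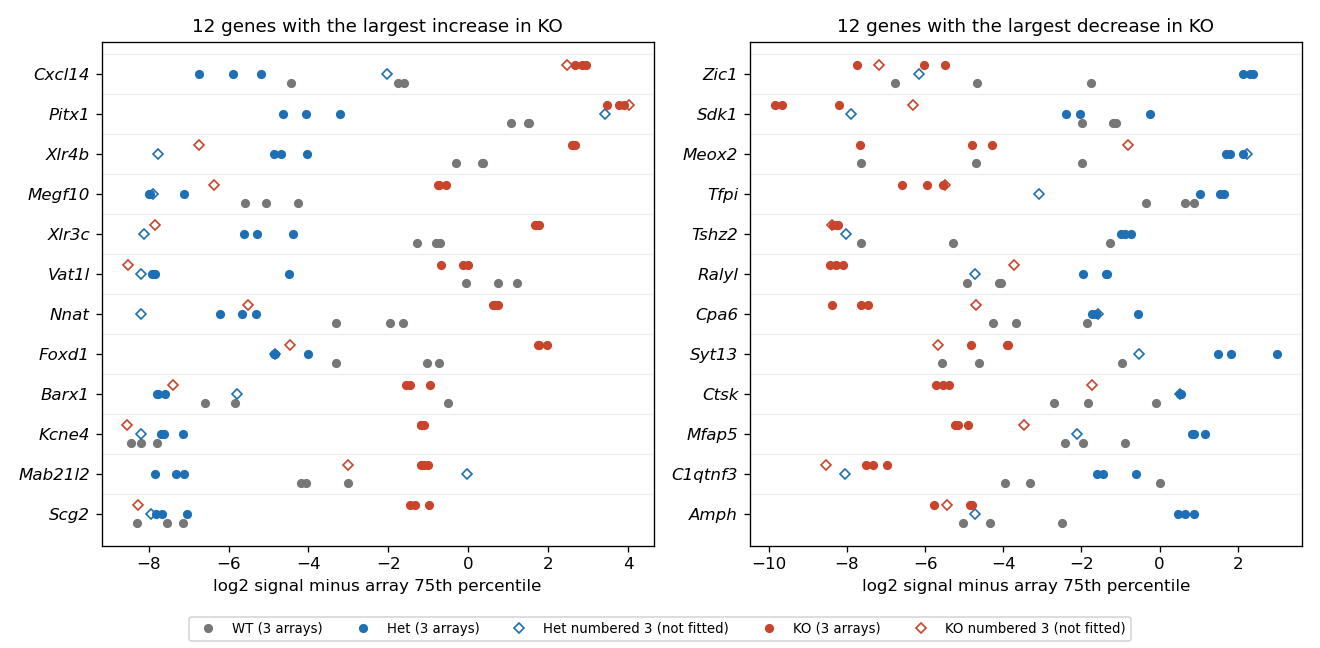
Each row is 1 of the 12 genes with the largest increase (left) or decrease (right) in KO, and the x axis is the log2 signal minus the array's 75th percentile. Filled points are the 3 WT (grey), 3 Het (blue) and 3 KO (red) arrays, and open diamonds are the Het and KO arrays numbered 3, which were not fitted. Filled blue and red points never overlap, and for 7 of the 24 genes the diamonds are in the opposite order.

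The 12 largest decreases ran from -8.71 to -5.81 and were led by Zic1, Sdk1 and Meox2. Zic1, a zinc finger factor of dorsal neural tube and somites, had levels of 2.4, 2.31 and 2.14 in Het and -7.75, -5.5 and -6.02 in KO (chr9:90989326-90989385). All Het arrays were high and all KO arrays low, by -8.71 (SE 1.1, adjusted p = 0.00174). The WT arrays spread from -6.76 to -1.75, and Het 3 and KO 3 were both low, at -6.16 and -7.19. Meox2, a homeobox factor of somites and limb muscle, had levels of 2.14, 1.81 and 1.7 in Het and -7.66, -4.29 and -4.8 in KO (chr12:35014505-35014564). Its groups were separate by -7.47 (SE 1.34, adjusted p = 0.00934), and KO 3 was below Het 3 by -3.04.

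Tshz2, a teashirt zinc finger factor, and Sdk1, an adhesion molecule of the sidekick family, were well above background on all Het arrays and on no KO array. Tshz2 was at least 97.1-fold lower in KO (Het -0.72, -1 and -0.89, adjusted p = 0.00766) and Sdk1 at least 60.1-fold lower (Het -0.25, -2.04 and -2.4, adjusted p = 0.000173). The other Tshz2 probes differed by -3.66 and -4.37. Ralyl, an RNA-binding protein, was likewise at least 59-fold lower (adjusted p = 1.08e-05). In the pair numbered 3 the differences were -0.33 for Tshz2, 1.58 for Sdk1 and 1 for Ralyl.

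Tfpi, the inhibitor of the tissue factor pathway of coagulation, had levels of 1.64, 1.54 and 1.04 in Het and -6.58, -5.55 and -5.95 in KO. All KO arrays were low, by -7.43 (SE 0.37, adjusted p = 2.13e-05), and the other 3 probes differed by -5.07, -5.18 and -7.47. Ctsk, the collagen-degrading cathepsin K, had levels of 0.51, 0.52 and 0.54 in Het and -5.39, -5.71 and -5.54 in KO. This difference of -6.07 (SE 0.54, adjusted p = 0.00027) was -2.25 in the pair numbered 3. Mfap5, a protein of elastic microfibrils, fell by 6.06 (SE 0.34, adjusted p = 4.16e-05). C1qtnf3, a secreted C1q-family protein, differed by -6.06 (SE 0.88) and Cpa6, a carboxypeptidase, by -6.52 (SE 0.6). Amph, a membrane-bending protein of endocytosis, differed by -5.81 (SE 0.58). Syt13, a synaptotagmin, differed by -6.31 (SE 1.04) at the probe used and by -1.16 at its other probe. In the pair numbered 3, Tfpi, Mfap5, C1qtnf3, Cpa6, Amph and Syt13 all had KO below Het, by -2.41, -1.36, -0.5, -3.13, -0.7 and -5.14.

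Of the 24 genes named by size, 17 had the same direction in the left-out pair and 11 of these by at least 2-fold. Some of these pair values were differences between background readings. Below the lowest well-above-background signal of both arrays (-5.91 on Het 3, -6.26 on KO 3) were Xlr4b, Xlr3c, Megf10, Zic1, Tshz2 and C1qtnf3. All had the same direction, and Xlr4b, Megf10 and Zic1 by at least 2-fold. Kcne4, Scg2, Vat1l and Sdk1 also lay below and had the opposite direction. All 24 kept their call with slide as a block, 20 with normexp background correction, 19 with arrays 4 and 5 averaged and 5 with all 12 arrays. Leaving out any 1 array kept the call of each except Barx1, which lost it without any 1 of the 6 Het and KO arrays (adjusted p up to 0.0649). Over these and all called list members, 154 of 250 genes kept their call whichever array was left out.

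Wnt ligands, receptors and antagonists had 17 members called higher and 5 lower of 45 tested (48.9%), and T-box, homeobox and other patterning factors had 17 and 9 of 61 (42.6%). Retinoic acid genes had 4 and 4 of 21 (38.1%), Hox genes 7 and 5 of 32 (37.5%), growth factor ligands and receptors 8 and 8 of 46 (34.8%), and TGF-beta and BMP signalling 9 and 7 of 47 (34%). The share over all tested genes was 9.17%. With slide as a block the Wnt share was 46.7% and the patterning share 45.9%, beside 8.01% of all tested genes. With all 12 arrays the shares were 6.67% for Wnt, 4.92% for patterning, 4.76% for retinoic acid, 4.35% for growth factor and 2.13% for TGF-beta and BMP genes, beside 0.83% of all tested genes, and no Hox gene of 32 was called.

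**Figure D3:**
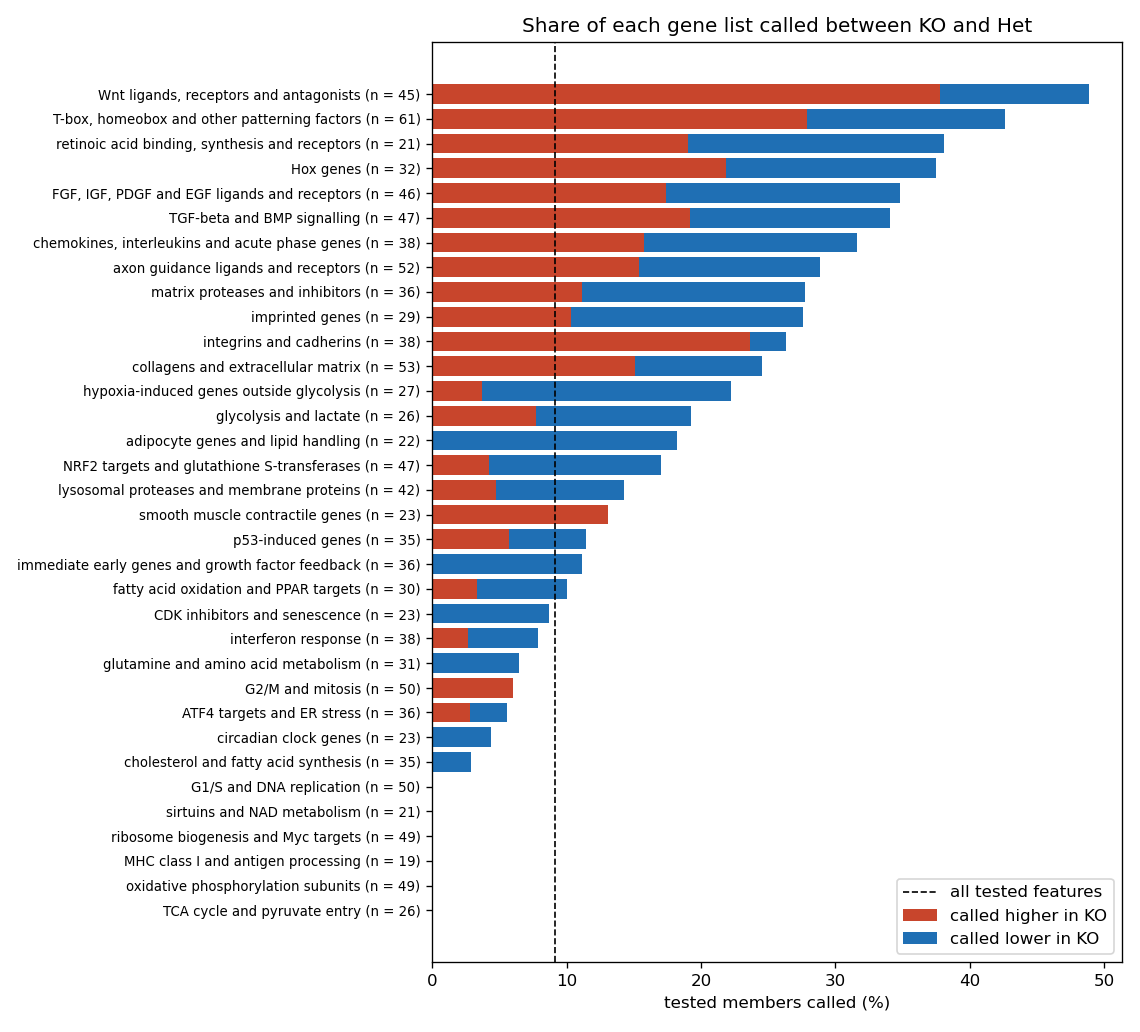
Bars give the share of tested members of each pathway list that was called higher (red) or lower (blue) in KO, in percent, with the number tested in brackets. The dashed line is the share over all tested genes, 9.17%. Wnt genes (48.9%) and patterning factors (42.6%) have the longest bars, and 6 lists have none.

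Among the patterning factors the called members differed in both directions. Besides Pitx1, Foxd1 and Barx1, the limb and jaw factor Shox2 had levels of -6.41, -5.51 and -5.93 in Het and -0.77, -0.9 and -0.69 in KO, higher by 5.16 (SE 0.24, adjusted p = 1.45e-05). The LIM homeobox factor Lhx9 had Het levels of -2.88, -2.57 and -2.53 and KO levels of 2.06, 2.08 and 2.11, higher by 4.74 (SE 0.2, adjusted p = 1.23e-05). Neither gene overlapped between genotypes, and in the pair numbered 3 they differed by -0.22 and 1.13. The hindlimb T-box factor Tbx4 was higher by 3.49 (SE 0.81), Emx2 by 2.59 (SE 0.2), Lhx2 by 2.34 (SE 0.34) and Tbx15, a T-box factor of skin and skeleton, by 2.12 (SE 0.17). The calls on Tbx4 and Barx1 were lost without any 1 of the 6 Het and KO arrays (adjusted p up to 0.109 and 0.0649). Tbx4 had means of -8.65 in Het and -5.16 in KO, so its size depends on signal near background.

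Lower patterning factors besides Zic1 and Meox2 included Osr2, a palate and limb factor, by -2.81 (SE 0.38), and En1, a homeobox factor of midbrain and ventral limb ectoderm, by -2.36 (SE 0.34). Their values in the pair numbered 3 were -2.78 and -2.54. The median over the 61 tested members was 0.2. The pair numbered 3 had the same direction for 14 of the 26 called members.

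Within the Hox clusters the calls went both ways. Hoxb13, the most 5′ gene of its cluster and a factor of the tail and prostate, had levels of 0.37, 0.21 and 0.18 in Het and -4.7, -5.33 and -5.07 in KO. It was lower on all KO arrays by -5.29 (SE 0.36, adjusted p = 8.76e-05). In the pair numbered 3 it differed by -2.29, between background readings of -6.26 on Het 3 and -8.56 on KO 3. The lowest signals read as well above background on those arrays were -5.91 and -6.26. Hoxb2 and Hoxb7 were lower by -1.52 (SE 0.14) and -0.85 (SE 0.18), and Hoxc12 and Hoxc13 by -1.89 (SE 0.3) and -1.36 (SE 0.19). Hoxb7 had an adjusted p of 0.0505 with slide as a block. Higher were Hoxc6 by 1.52 (SE 0.31), Hoxc9 by 1.6 (SE 0.24), Hoxa10 by 1.33 (SE 0.19), Hoxa11 by 0.97 (SE 0.22), Hoxd4 by 2.83 (SE 0.47), Hoxd8 by 3.66 (SE 0.7) and Hoxd9 by 1.37 (SE 0.36). Hoxd9 had an adjusted p of 0.182 with slide as a block. Means of Hoxd4, Hoxd8 and Hoxd9 were low, at -8.4, -8.47 and -6.74 in Het and -5.58, -4.81 and -5.37 in KO. The sizes of these HoxD differences depend on signal near background. The called HoxA and HoxD genes thus all lay on the higher side, the called HoxB genes on the lower side, and the called HoxC genes on both. The pair numbered 3 had the same direction for 8 of the 12 called Hox genes and the opposite one for Hoxd8 (-0.89), Hoxd9 (-0.4), Hoxa10 (-0.22) and Hoxc9 (-0.61). Among those 8, Hoxb13 and Hoxc13 were not well above background on either array of the pair. Hoxd8 lost its call without KO 4 (adjusted p = 0.0524), Hoxa11 without Het 2, Het 4, KO 4 or KO 5 (up to 0.116), Hoxc6 without Het 2, Het 4, KO 2 or KO 4 (up to 0.0705), and Hoxb7 without Het 4, Het 5, KO 2 or KO 5 (up to 0.0949). Hoxd9 lost it without any array but WT 1 and Het 5 (up to 0.164).

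Of the Wnt ligands, Wnt10a had levels of -1.81, -2.04 and -2.12 in Het and 1.02, 1.6 and 1.57 in KO. It was higher on all KO arrays by 3.39 (SE 0.32, adjusted p = 0.000354), whereas KO 3 was below Het 3 by -3.09. Wnt2, Wnt4 and Wnt6 were higher by 2.77 (SE 0.44), 2.56 (SE 0.39) and 1.66 (SE 0.38), and Wnt7b and Wnt9a were lower by -1.86 (SE 0.29) and -1.21 (SE 0.27). Among receptors, Fzd4 rose by 2.48 (SE 0.21), Fzd6 by 1.58 (SE 0.18), Fzd9 by 1.52 (SE 0.23) and the co-receptor Lrp6 by 1.16 (SE 0.13). Wnt6 and Wnt9a lost their calls without Het 4, Het 5 or any 1 KO array (adjusted p up to 0.112 and 0.104). Wnt2 had means of -7.79 in Het and -5.02 in KO, so its size depends on signal near background.

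The secreted antagonists Sfrp4, Sfrp1 and Frzb, which bind Wnt ligands, were higher by 2.1 (SE 0.19), 2.21 (SE 0.4) and 2.61 (SE 0.58). The antagonist Dkk2 and the intracellular inhibitor Nkd2 were lower by -1.99 (SE 0.28) and -2.97 (SE 0.37). Between KO 3 and Het 3, Sfrp1 differed by -2.76 and Dkk2 by 0.91, and the direction was the same for 11 of the 22 called Wnt genes. Ligands, receptors and antagonists were thus all among the higher calls. The median over the 45 tested members was 0.52, beside -0.02 over all tested genes. Sfrp1 lost its call without KO 4 (adjusted p = 0.0503) and Frzb without Het 2, Het 4 or any 1 KO array (up to 0.0939). The size for Frzb, with means of -7.53 in Het and -4.92 in KO, depends on signal near background.

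**Figure D4:**
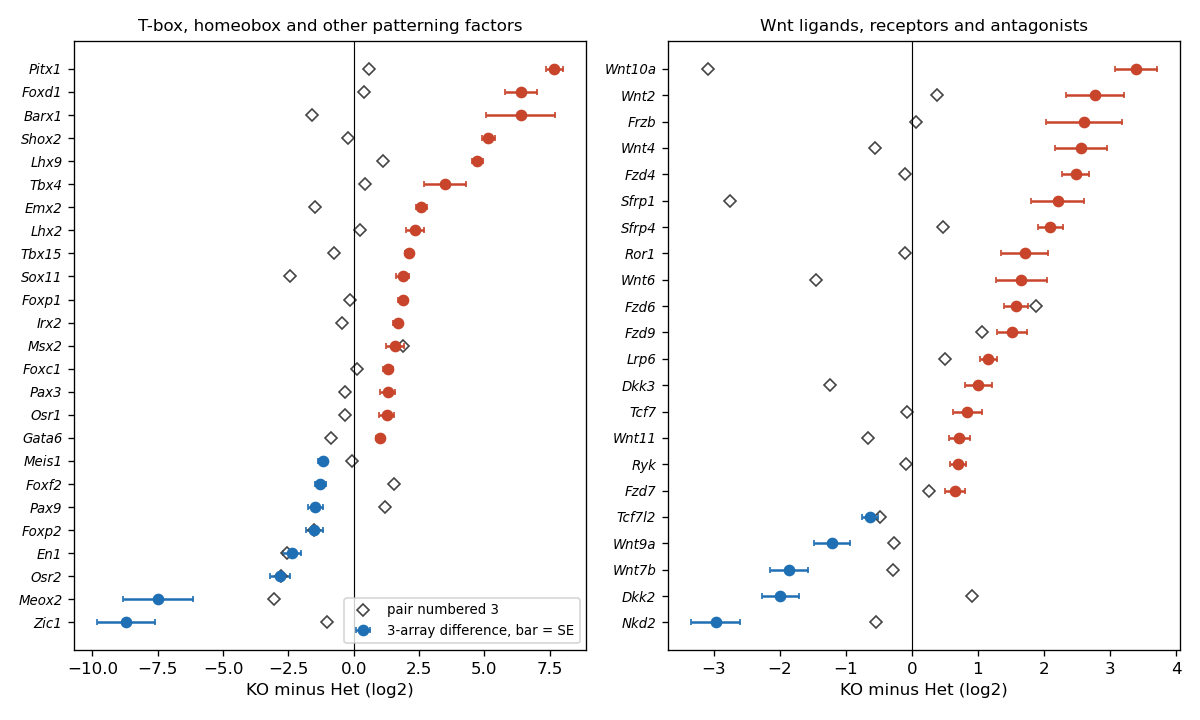
Called members of the patterning list (left) and the Wnt list (right) that are reported here, with the KO minus Het difference in log2 units on the x axis. Filled points are the difference on arrays 2, 4 and 5 with its standard error, red where higher in KO and blue where lower, and open diamonds are the pair numbered 3. Pitx1 (7.68) and Zic1 (-8.71) are the extremes on the left, and Wnt10a has 3.39 against -3.09 in the pair.

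Among BMP and TGF-beta genes, the ligand Bmp4 was higher by 3.06 (SE 0.33, adjusted p = 0.000797) and Bmp2 lower by -4.48 (SE 0.28, adjusted p = 7.04e-05). KO 3 was above Het 3 for both, by 1.75 and 3.27. Only 1 of the 3 KO arrays read Bmp2 well above background. With normexp background correction the Bmp2 difference was -1.22 and was not called (limma adjusted p = 0.296). The BMP-induced inhibitors of differentiation Id2, Id3 and Id4 were higher by 2.85 (SE 0.34), 2.07 (SE 0.35) and 1.69 (SE 0.3), as was the inhibitory Smad6, by 1.24 (SE 0.22). The ligand Tgfb2 was higher by 2.4 (SE 0.18) and Gdf5, a joint-forming ligand, by 2.02 (SE 0.22). The ligand Bmp6 was lower by -2.94 (SE 0.48) and the receptor Bmpr1b by -2.44 (SE 0.32). The direction in the pair was the same for 11 of the 16 called members.

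Among growth factors, Fgf5, Fgf10 and the Kit ligand Kitl were lower by -4.95 (SE 0.38), -3.77 (SE 0.6) and -3.94 (SE 0.3). Pdgfc and Pdgfd were lower by -1.67 (SE 0.17) and -1.51 (SE 0.13), and Vegfb, Vegfc and Vegfd by -0.85 (SE 0.17), -1.19 (SE 0.29) and -1.52 (SE 0.26). Igf1 was higher by 3.07 (SE 0.52), the IGF-binding protein Igfbp2 by 4.88 (SE 0.63) and the receptor Egfr by 2.53 (SE 0.23). The growth factor feedback genes Etv1, Etv4, Etv5 and Spry4, which are induced by FGF and ERK signalling, were lower by -1.76 (SE 0.29), -1.27 (SE 0.22), -1.53 (SE 0.23) and -2.15 (SE 0.42), the 4 called members of 36 tested in their list (11.1%, beside 9.17% over all genes). All 4 lost their calls with arrays 4 and 5 averaged (limma adjusted p up to 0.105) and with all 12 arrays (up to 0.409). Etv1, Etv5 and Spry4 lost theirs with normexp background correction (up to 0.404), and Etv4, Etv5 and Spry4 with no scaling (up to 0.0981). In the pair numbered 3 these 4 genes differed by -1.31, -0.78, -1.56 and -1.38. Of the 16 called growth factor genes, 11 had the same direction there. Spry4 lost its call without Het 4 (adjusted p = 0.0557), Vegfb without Het 4, KO 4 or KO 5 (up to 0.0661), and Vegfc without WT 5 or any 1 of the 6 Het and KO arrays (up to 0.136).

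Retinoic acid genes changed in both directions. Crabp1, a cytoplasmic retinoic acid binding protein, had levels of 5.6, 5.41 and 5.72 in Het and 1.57, 2.19 and 1.94 in KO. It was lower on all KO arrays by -3.67 (SE 0.18, adjusted p = 2.13e-05) and by -4.02 in the pair numbered 3. Crabp2, Adh1 and Adh7, of which Adh1 and Adh7 encode retinol-oxidising alcohol dehydrogenases, were lower by -1.3 (SE 0.19), -3.75 (SE 0.65) and -1.75 (SE 0.34). The receptor gene Rarb, itself induced by retinoic acid, was higher by 3.56 (SE 0.7) and the retinaldehyde reductase Dhrs3 by 3.01 (SE 0.39). Rarb lost its call without Het 2, Het 4, KO 4 or KO 5 (adjusted p up to 0.0661), and Adh7 without Het 4, KO 4 or KO 5 (up to 0.0596). Between KO 3 and Het 3, Rarb differed by -0.16, and 4 of the 8 called genes had the same direction.

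Matrix genes split as well, with 8 members called higher and 5 lower of 53 tested (24.5%, beside 9.17% over all genes). Col14a1 and Col15a1 were higher by 5.48 (SE 0.5) and 3.38 (SE 0.29), the elastic fibre protein Eln by 3.27 (SE 0.21) and Col8a2 by 3.6 (SE 0.5). KO 3 was below Het 3 for Col15a1 and Eln, by -2.35 and -1.16. Of the matrix proteases, the gelatinase Mmp2 was higher by 3.05 (SE 0.28) and the stromelysin Mmp3 lower by -5.05 (SE 1.1). Mmp3 lost its call without any 1 Het array, KO 2 or KO 5 (adjusted p up to 0.0803). Integrins and cadherins had 9 higher and 1 lower of 38 (26.3%), among them Itga11, a collagen receptor, by 2.59 (SE 0.42), Cdh11, a mesenchymal cadherin, by 2.53 (SE 0.21) and, lower, Itga6 by -1.85 (SE 0.19). For Cdh11 the pair numbered 3 differed by -2.42. The direction in that pair was the same for 9 of 13 called matrix genes, 7 of 10 matrix proteases and inhibitors, and 5 of 10 integrins and cadherins.

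The contractile gene Cnn1, calponin of smooth muscle, had levels of 0.07, 0.07 and 0.12 in Het and 3.23, 3.49 and 3.47 in KO. It was higher by 3.31 (SE 0.12, adjusted p = 7.4e-06), and by 1.66 in the pair numbered 3, while WT levels were 4.76, 4.84 and 4.82. Tagln and Synpo2 were the other called members of the 23 contractile genes tested (13% called, beside 9.17% over all genes), higher by 1.05 (SE 0.28) and 0.82 (SE 0.15). The adjusted p of Tagln was 0.0504 with slide as a block. Tagln lost its call without any 1 array but WT 1 (up to 0.174), and Synpo2 without KO 5 (0.0514).

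Among chemokines, interleukins and acute phase genes, 6 were higher and 6 lower of 38 tested (31.6%, beside 9.17% over all genes). Cxcl12, a chemokine that retains blood precursors in tissue, was higher by 2.25 (SE 0.26), and the interleukin 1 antagonist Il1rn by 3.52 (SE 0.34). The adhesion molecule Vcam1 was lower by -1.83 (SE 0.21) and the interleukin 33 receptor Il1rl1 by -1.73 (SE 0.33). Of the 12 called genes, 9 had the same direction in the pair numbered 3. Il1rl1 lost its call without Het 4 (adjusted p = 0.056).

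The study's title names proliferation and metabolism as its questions. None of the 26 genes of the TCA cycle and pyruvate entry, the 49 oxidative phosphorylation subunits, the 50 genes of G1/S and DNA replication, the 49 of ribosome biogenesis and Myc targets, the 19 of MHC class I and the 21 of sirtuins and NAD metabolism was called by limma, at an adjusted p under 0.05. At an unadjusted p under 0.05, 1, 0, 6, 3, 3 and 3 of them passed, in that order, and their median differences were 0.01, 0.03, -0.08, -0.22, -0.34 and -0.09. For the other sirtuins, Sirt2 to Sirt7 differed by -0.11, -0.43, 0.15, -0.21, 0.2 and 0.08, and none passed the test, with the lowest adjusted p at 0.104 for Sirt3. Nnmt, which methylates nicotinamide, had levels of 2.67, 2.68 and 2.61 in Het and 0.9, 1.07 and 1.07 in KO, and WT arrays at 2.78, 1.02 and 0.87. Its groups did not overlap, and the difference of -1.64 (SE 0.44) had an adjusted p of 0.0519, which became 0.00245 with slide as a block, 0.00892 with the replicate block and 0.000332 with the 6 Het and KO arrays alone. KO 3 was below Het 3 by -2.44. A missed threshold does not show that these genes were alike.

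Glycolysis and lactate genes had 2 called higher and 3 lower of 26 (19.2%, beside 9.17% over all genes), with a median of -0.4. The glucose transporter Slc2a1, the aldolase Aldoa and the transketolase Tkt were lower by -0.76 (SE 0.17), -0.63 (SE 0.15) and -0.57 (SE 0.13). With slide as a block their adjusted p were 0.074, 0.119 and 0.091. All 3 also lost their calls without any 1 Het array, KO 4 or KO 5, and Aldoa and Tkt without KO 2 (adjusted p up to 0.117, 0.144 and 0.13). Higher were the lactate dehydrogenase subunit Ldhb by 1.57 (SE 0.25) and Pfkfb3, which makes the activator of phosphofructokinase, by 0.9 (SE 0.15). KO 3 and Het 3 had the opposite direction for Ldhb (-0.5), Pfkfb3 (-0.39) and Slc2a1 (0.52). Hypoxia-induced genes had 1 higher and 5 lower of 27 (22.2%), including the peptide hormones Stc2 by -2.13 (SE 0.15) and Adm by -2 (SE 0.27), with -2 and -1.42 in the pair numbered 3.

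In the p53 list, 2 members were called higher and 2 lower of 35 tested (11.4%), close to the 9.17% over all genes. Perp, a desmosomal effector of p53, was higher by 3.42 (SE 0.27, adjusted p = 0.000167), with 1.14 in the pair numbered 3. Fas, the death receptor, was higher by 1.04 (SE 0.25), and Pmaip1, which encodes Noxa, was lower by -1.47 (SE 0.33). Fas and Pmaip1 differed by 0.23 and 0.99 in that pair. Of 50 mitotic genes tested, 3 were called (6%), below the 9.17% over all genes. These were the kinases Melk and Ttk and the motor Kif11, higher by 0.56 (SE 0.14), 0.62 (SE 0.14) and 0.6 (SE 0.14). With slide as a block their adjusted p were 0.156, 0.143 and 0.102, and Melk differed by -0.7 when all its probes were averaged. Melk, Kif11 and Fas lost their calls without WT 5 or any 1 of the 6 Het and KO arrays (adjusted p up to 0.17, 0.127 and 0.138). Ttk lost it without Het 2, Het 4 or any 1 KO array (up to 0.128), and Pmaip1 without Het 4, Het 5 or any 1 KO array (up to 0.111).

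In fat cell genes, 4 of 22 tested were called, all lower (18.2%, beside 9.17% over all genes). They were the brown fat regulator Prdm16 by -3.68 (SE 0.33), the lipid droplet protein Plin4 by -2.77 (SE 0.4), the preadipocyte factor Dlk1 by -1.78 (SE 0.44) and Pparg, the master factor of fat cell formation, by -0.98 (SE 0.18). Prdm16 differed by -4.35 in the pair numbered 3, Dlk1 by -2.17, Pparg by -0.52 and Plin4 by 0.18. The adjusted p of Dlk1 was 0.0818 with slide as a block. Dlk1 lost its call without any 1 array but WT 1 (up to 0.116), and Pparg without Het 4 (0.0543). Imprinted genes had 3 higher and 5 lower of 29 (27.6%), with Nnat at one end and Dcn at the other, and Impact lower by -2.46 (SE 0.13, adjusted p = 3.38e-05).

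Interferon-response genes had 1 higher and 2 lower of 38 (7.89%, below the 9.17% over all genes), with a median of -0.54. Oas2, an antiviral enzyme, was lower by -1.92 (SE 0.48), but had an adjusted p of 0.088 with slide as a block and 2.39 in the pair numbered 3. Of NRF2 targets and glutathione transferases, 2 were higher and 6 lower of 47 (17%), among them the glutathione transferase Mgst2 by -3.3 (SE 0.55) and the regulator Nfe2l2 itself by -0.76 (SE 0.15). The pair numbered 3 had the opposite direction for 5 of those 8, Mgst2 (0.56) and Nfe2l2 (0.1) included. Oas2 lost its call without WT 5 or any 1 of the 6 Het and KO arrays (adjusted p up to 0.14), and Nfe2l2 without Het 4 or KO 5 (up to 0.072).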

How the data were processed

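Gene expression was measured on 1-colour Agilent whole mouse genome arrays. The authors deposited scanner files whose processed signal is a background-corrected intensity per spot, made with Agilent Feature Extraction 9.5 per the submitters' processing notes. Probe positions are on mouse build mm7 per the file headers. The members and the gene lists were chosen with earlier results of these data known.

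Control spots and spots marked as outliers were removed, spots of a probe were averaged on the log2 scale, and each array's 75th percentile was subtracted. Probes were named through RefSeq (GRCm38.p6): 22951 of 41174 by accession, 6659 by current symbol and 3109 by synonym. The 8455 with no match kept the array's own name and entered the same filter and tests. Each gene was represented by its brightest probe over the 9 arrays not numbered 3. Those 9 arrays were fitted with 1 mean per genotype in limma 3.58.1 (R 4.3.3, lmFit and eBayes, 6 residual degrees of freedom), with Benjamini-Hochberg adjustment over 17477 genes and a threshold of 0.05. Tested on simulated data for this comparison (17468 genes, 200 changed), the fit called 42% of changes of log2 size 1 and 85% of size 2, with 12 false calls.

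Named genes were the 12 largest called changes in each direction with no overlap between genotypes and an established symbol, then up to 4 called members of each of 34 pathway and 9 cell type lists by lowest adjusted p (the 2 lowest where none was called), and the Sirt1, Xist and Y-linked probes. Further called members of the developmental, matrix and metabolic lists were named after their values were seen. Some called genes are counted in their lists but not reported here by name. The number of arrays limits the precision. Alternatives were another background correction, scaling, filter, probe rule, sample set, replicate and slide blocks, array weights and leaving out each array. Figures were drawn with matplotlib 3.10.9.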

Additional observations from a re-analysis of the deposited data

Results flagged for a closer look

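For 13 of the named genes reported here, the pair numbered 3 went the other way than the fitted arrays, by at least 2-fold. At each of them the 3 KO arrays all lay on one side of the 3 Het arrays. Only genes well above background on Het 3, KO 3 or both were counted. That rule left out Sdk1 and Barx1, with 1.58 and -1.59 in the pair. The difference between the sets of arrays was not tested, since the pair numbered 3 has no replicate. Lower on arrays 2, 4 and 5 but higher in the pair were the ligand Bmp2 (3.27 in the pair), the antiviral enzyme Oas2 (2.39) and the RNA-binding protein Ralyl (1). Higher on arrays 2, 4 and 5 but lower in the pair were Wnt10a (-3.09), Mab21l2 (-2.97), Fap (-2.69), Cdh11 (-2.42), the slow troponin Tnni1 (-2.39), Col15a1 (-2.35), the exchange factor Rasgrf1 (-1.72), Emx2 (-1.48), Eln (-1.16) and the ephrin receptor Epha4 (-1.11). Mab21l2 was brighter on Het 3, at -0.04, than on any array of the fitted KO group, where it lay between -1.18 and -1. Groups of 3 arrays are too small for an outlier test.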

How the results depend on the processing

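The calls, 823 higher and 779 lower in KO, became 492 and 348 with normexp background correction, 522 and 487 with no filter on dim probes, 91 and 54 with all 12 arrays, 270 and 180 with numbers 4 and 5 averaged, and 3554 and 3566 with array weights, which gave KO 5 a weight of 7.39 and WT 1 of 0.167. No scaling left 274 lower calls and raised the median of all genes to 0.3. Leaving out 1 array gave 460 to 1213 higher and 422 to 1268 lower calls. The replicate block on numbers 2, 4 and 5 gave 656 and 616, of which 554 and 488 were among the original calls, and same-numbered arrays deviated from their group means with correlations of -0.2, -0.07 and -0.28, so the numbers do not pair the arrays. For the first Sirt1 probe the difference was -0.59 (adjusted p = 0.196) with no scaling, -0.92 (0.0725) with the replicate block and -0.88 (0.0531) with slide as a block, and -1.09 to -0.81 with 1 array left out. For the second it was 0.19 with no scaling and -0.39 to 0.1 with 1 array left out, so its sign was not settled. Of 130 named genes that were called, 108 lost the call with all 12 arrays, 61 with numbers 4 and 5 averaged, 32 with normexp and 18 with slide as a block, and 20 kept it under every alternative in which they were tested. The averaged probes gave Melk -0.7 and Ifi27 -0.84, the only called named genes to change sign. List medians moved beyond the array spread in 97 of 946 checks, 42 of them with no scaling. The causes were not tested. Signal near background limits the folds of the largest changes. It also limits those of list members with a low mean in 1 genotype, such as Fgf10 (KO -6.69), Adh1 (KO -7.5) and Stmn2 (Het -7.8).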
